A study of Mus musculus with 31 samples.

Results

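The change that Cxcl5 genotype made to each gene in 3D culture was set against the change it made in 2D culture, in Panc02 cells, a mouse pancreatic adenocarcinoma line. The measure was the interaction, which is the log2 difference between Cxcl5-/- and WT in 3D minus the same difference in 2D. A negative interaction means that the knockout-labelled libraries lay lower against WT in 3D than they did in 2D, and a positive one that they lay higher. The rule took all samples of the table of 2D and 3D cultures, which was 12 of the 31 samples of the series, in 4 groups of 3: WT in 2D, Cxcl5-/- in 2D, WT in 3D and Cxcl5-/- in 3D, all labelled as kept in culture medium.

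The Cxcl5-/- line was made by the authors with a lentiviral CRISPR-Cas9 vector carrying 1 guide to Cxcl5 and selection in puromycin, so that a single line stands for the genotype, and whether it is a clone and whether the WT cells carried an empty vector are not stated in the sources used here. The 3D cells were spheroids formed on ultra-low attachment plates and then embedded in Matrigel, while 2D cells grew on plastic. The labels do not say that the 3 samples of a group came from separate cultures, so p-values measure the spread between these samples, which may be technical. Spheroids and flat cultures can also differ in the share of live or dividing cells, and in bulk RNA fewer cells of a state and less RNA per cell cannot be told apart.

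CXCL5 is a secreted CXC chemokine that binds the receptor CXCR2 and is best known for drawing neutrophils. Cells inside a spheroid receive less oxygen and nutrients than cells on plastic. When oxygen is low, HIF-1, a dimer of HIF-1α and ARNT, escapes hydroxylation by the EGLN enzymes and destruction through VHL, and induces glycolytic enzymes, angiogenic factors and mitophagy receptors. Low sterol releases SREBP-2 to induce cholesterol synthesis, and lack of amino acids acts through ATF4 on serine synthesis and amino acid transport.

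Cxcl5 itself (chr5:90759360-90761624, plus strand, GRCm38) was examined first. Cxcl5 stood at 45.6, 47.3 and 49.1 CPM in 2D WT, 37.4, 32.7 and 32.8 in 2D Cxcl5-/-, 28.5, 24.5 and 28.04 in 3D WT and 65.5, 40.9 and 45.4 in 3D Cxcl5-/-, where CPM stands for reads scaled to a common library size by TMM. The libraries labelled 2D Cxcl5-/- all lay below 2D WT, whereas all 3 libraries labelled 3D Cxcl5-/- lay above 3D WT. The interaction was 1.37 ± 0.20 (SE, adjusted p = 2.67e-04) by edgeR's quasi-likelihood test, which gave all adjusted p-values below. The genotype effect was -0.47 ± 0.14 (SE, adjusted p = 0.0705) in 2D and 0.91 ± 0.14 (SE, adjusted p = 1.73e-04) in 3D. A gene-level count does not read the edit that a guide leaves, so it does not check the knockout. In 3D the count was higher in the libraries labelled Cxcl5-/-, which does not decide whether the label is right. The study names an immunoblot for CXCL5 as its check of the knockout, which is a protein measure and is not analysed here. For these reasons "3D Cxcl5-/-" and "knockout-labelled" name libraries by their label throughout. Cxcr2, the receptor, had 8 counts in 1 library of 3D WT and 0 in the other 11 libraries, and was not tested.

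**Figure D1:**
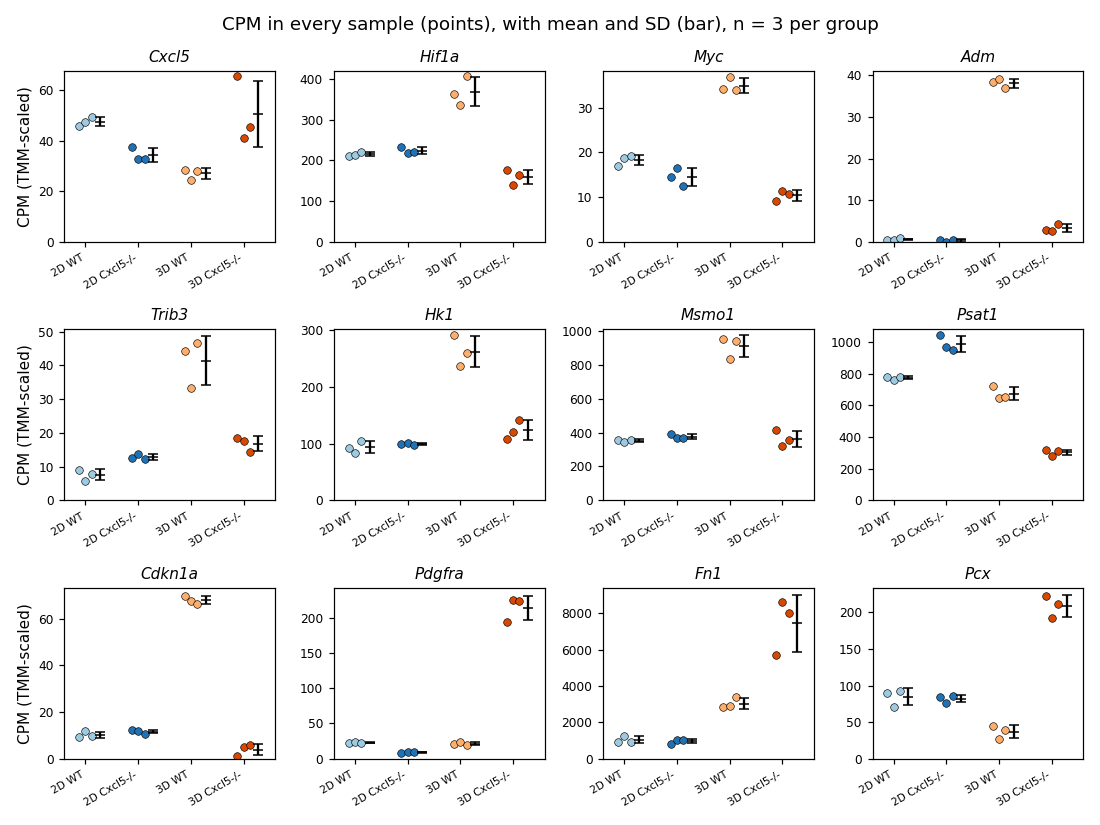
CPM of the TMM-scaled library (linear axes from 0) for 12 genes, with 1 point per sample and the mean and SD of the 3 samples of each group beside them; groups are named by their labels. For Hif1a, Myc, Adm, Trib3, Hk1, Msmo1 and Cdkn1a the 3D WT samples lie above the other groups, whereas for Pdgfra, Fn1 and Pcx the samples labelled 3D Cxcl5-/- do.

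The libraries held 46973008 to 72361685 counts. Keratins Krt8 and Krt18 were present in every group (means of 147 to 569 and 58.4 to 347 CPM), Pdx1 averaged 16.4 to 41.1 CPM, and the epithelial genes Epcam, Cdh1 and Cldn4 had at most 5 counts in any library. Of 9 macrophage markers, Adgre1 was at 0 and Itgam, Fcgr3 and Aif1 had at most 5 counts in any library, while Cd14 averaged 27.97 to 42.1 CPM, Lyz2 0.892 to 11.7 and Cd68 1.27 to 6.38, and Csf1r and Ptprc had at most 22 and 35 counts. Of the 5 tested, Cd14 was more negative (-0.67, adjusted p = 0.0061). The 8 endothelial markers had at most 22 counts in any library. The 3D libraries carried counts on genes that lie in satellite-like repeats and on genes of the olfactory and vomeronasal receptor families. Satellite-like genes took 6.97 to 16.0% of all counts in 3D WT, 0.370 to 0.478% in 3D Cxcl5-/- and at most 0.00200% in 2D. Of 1507 olfactory and vomeronasal receptor genes, 780 to 979 had a count in 3D WT, 262 to 378 in 3D Cxcl5-/- and 54 to 83 in 2D, and their summed level was 107 to 160, 36.3 to 40.3 and 10.9 to 15.03 CPM. These counts differed between the genotypes in 3D and overlapped between them in 2D, as an interaction does, and their part in the results below was not tested. Genes chosen by the size of their value were required to average at least 5 CPM over the 12 samples.

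**Figure D2:**
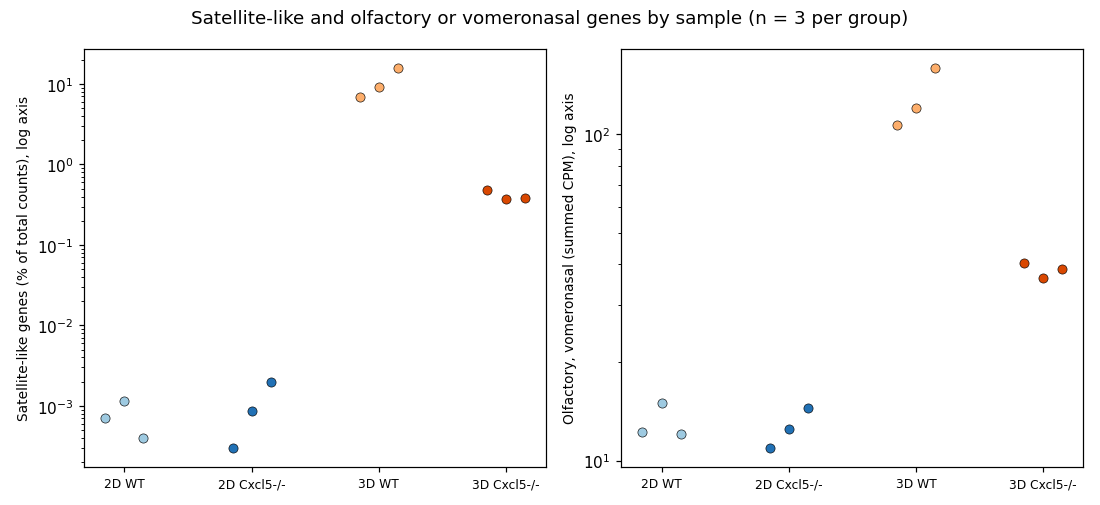
Share of all counts on satellite-like genes (left, percent) and summed CPM of olfactory and vomeronasal receptor genes (right) in every sample, 3 per group, on log axes. 3D WT lies highest in both panels, 3D Cxcl5-/- lies between, and both 2D groups lie lowest and overlap.

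The interaction passed the threshold (adjusted p under 0.05) for 5807 of 21367 genes tested, or 27.2%. It was more negative in 3D for 3431 genes (16.1%) and more positive for 2376 (11.1%), and 1076 and 1362 of these exceeded 1 on the log2 scale. The direction went with level. Among 3977 genes averaging 50 CPM or more, 1445 (36.3%) were more negative and 481 (12.1%) more positive, while among 7349 genes under 1 CPM 193 and 417 were. The split also went with scaling. With TMM, 59.1% of calls were negative and the median over all genes was -0.05, with DESeq2's size factors 58.8% were, with raw library totals 22.9% were and the median was 0.32, and with library totals after removal of the satellite-like genes 39.2% were and the median was 0.16. A refit on genes averaging at least 5 CPM gave 48.9%. The balance of directions changed with the scaling, and no gene called both by TMM and by another setting changed sign. Gene groups are set below against the median of all genes, and a printed median that changes sign is given with both values. Group counts are to be read beside the shares of all genes given above. The sign also changed over 8 settings for some medians not printed below. Among them, genes of epithelial and mesenchymal state ran from -0.90 to 0.52, and actin and focal adhesion genes from -0.15 to 0.23. Chemokines and NF-κB genes ran from -0.12 to 0.26, and ductal and epithelial markers from -1.12 to 0.94.

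**Figure D3:**
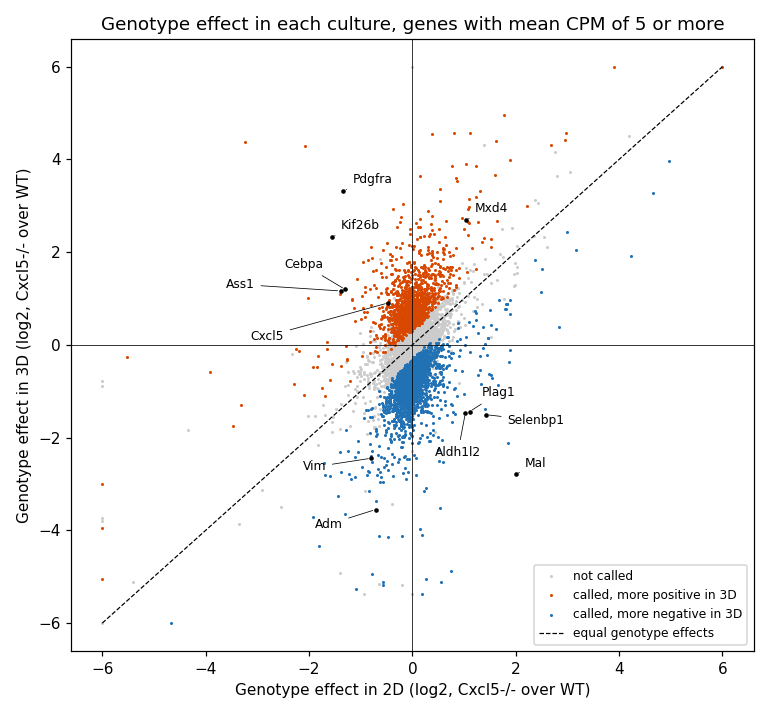
Genotype effect in 3D (y axis, log2) against that in 2D (x axis, log2) for genes averaging at least 5 CPM, coloured by the interaction call; values beyond 6 are drawn at the edge. Points lie in a steep band. Pdgfra, Kif26b, Ass1 and Cebpa sit at upper left and Mal, Selenbp1, Aldh1l2 and Plag1 at lower right, where the effects have opposite signs.

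Genotype alone was called for 1502 genes in 2D (7.03%; 3.86% higher and 3.17% lower) and for 9615 in 3D (45%; 19.7% higher and 25.3% lower), and culture for 44.3% of genes in WT and 57% in Cxcl5-/-. Of these, 952 were called in both with the same sign, which is 63.4% of the 2D calls and 9.90% of the 3D calls. Another 170 were called in both with opposite signs (0.796% of genes tested, 11.3% of the 2D calls and 1.77% of the 3D calls), 100 of them higher in 2D and lower in 3D and 70 the reverse. Those counts depended on single libraries. Without 2D Cxcl5-/- replicate 1 they were 63 and 35, and without 3D Cxcl5-/- replicate 1 the first was 154. Without 2D WT replicate 1 or 3, 2D Cxcl5-/- replicate 2 or 3, 3D WT replicate 3 or 3D Cxcl5-/- replicate 3 the second was 37, 42, 38, 46, 46 and 45.

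The hypoxia and glycolysis genes moved together, and ACGTG is a form of the core of the element that HIF-1 binds. For this reason, promoter stretches of 4 genes from RefSeq (GRCm38.p6) are shown. Each runs 5′ to 3′ over the 160 bases before the gene start, and capitals mark ACGTG on either strand (read as CACGT on the other).
P4ha1 (chr10:59323136-59323295, plus strand): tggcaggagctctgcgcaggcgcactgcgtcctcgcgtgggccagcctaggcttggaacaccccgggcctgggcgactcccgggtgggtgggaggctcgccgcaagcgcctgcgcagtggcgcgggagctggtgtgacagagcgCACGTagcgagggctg
Pgk1 (chrX:106186940-106187099, plus strand): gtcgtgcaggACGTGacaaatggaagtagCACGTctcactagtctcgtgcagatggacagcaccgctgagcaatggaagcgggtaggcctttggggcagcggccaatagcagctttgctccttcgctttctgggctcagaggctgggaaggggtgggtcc
Adm (chr7:110627497-110627656, plus strand): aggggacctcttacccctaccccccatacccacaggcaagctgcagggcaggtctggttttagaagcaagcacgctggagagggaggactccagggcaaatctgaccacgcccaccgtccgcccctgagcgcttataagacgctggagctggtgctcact
Mvd (chr8:122443423-122443582, minus strand): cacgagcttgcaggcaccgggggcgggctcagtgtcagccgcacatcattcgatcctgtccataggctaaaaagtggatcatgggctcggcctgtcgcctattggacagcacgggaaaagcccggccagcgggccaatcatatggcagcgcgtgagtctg
P4ha1 encodes a collagen prolyl hydroxylase, Pgk1 a glycolytic kinase, Adm the peptide adrenomedullin and Mvd an enzyme of the mevalonate pathway. The hypoxia list is made of known HIF targets, so a share of this motif describes the list and says nothing of the interaction. Over windows of 300 bases (250 before to 50 after the start), ACGTG on either strand was present for 11 of the 16 hypoxia targets called more negative that the table holds (68.8%), for 13 of 18 glycolysis genes (72.2%) and for 4 of 15 cholesterol genes (26.7%). Among members of the same lists that were not called more negative, it was present for 2 of 4, 3 of 5 and 0 of 2, in the same order. The share was 21.8% of all 27025 genes in the table and 30.9% of 8003 genes averaging at least 5 CPM. A match is letters in a window and not a bound site, and some genes have several windows. Adm has no ACGTG in its window. The other form of the core, GCGTG, was not searched. On either strand, it occurs unmarked in the printed stretches of P4ha1, Adm and Mvd.

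Hypoxia-responsive genes were higher in 3D than in 2D in both genotypes (27 of 28 called in each, beside 22.2% of all genes in WT and 28.7% in Cxcl5-/-), and most rose by less in the knockout-labelled cells. Of 28 HIF target genes tested, 21 were called more negative in 3D and 0 more positive, beside 16.1% and 11.1% of all genes, with a median interaction of -1.02. The median genotype effect was -0.04 in 2D and -1.11 in 3D, and the median change from 2D to 3D was 2.44 in WT and 1.40 in Cxcl5-/-. Under library totals the median was -0.65 and 20 were negative, with 1 positive.

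Hif1a, which encodes the oxygen-regulated subunit of HIF-1 (chr12:73901375-73947530, plus strand), was itself among the genes called more negative, at -1.27 ± 0.14 (SE, adjusted p = 2.43e-05). Hif1a stood at 211, 215 and 221 CPM in 2D WT, 234, 218 and 221 in 2D Cxcl5-/-, 363, 336 and 407 in 3D WT and 175, 140.0 and 163 in 3D Cxcl5-/-. The 2D groups overlapped, 3D WT lay above every other sample, and 3D Cxcl5-/- lay below every other sample. Among the other components, Egln1, an oxygen-sensing prolyl hydroxylase and itself a HIF target, and Vhl, the ligase subunit, were also more negative (-0.67 and -0.62). Hif1an, the asparaginyl hydroxylase that restrains HIF, was more positive at 0.68 ± 0.15 (SE, adjusted p = 0.00384), with 39.7, 33.1 and 35.3 CPM in 3D WT against 52.9, 63.97 and 64.7 in 3D Cxcl5-/-. The interaction of Arnt, the partner of HIF-1α, was 0.37, adjusted p = 0.179, and those of Epas1, Egln2 and Egln3 did not pass either (0.47, 0.35 and -0.31).

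Adm had the most negative value among the hypoxia targets at -2.84 ± 0.72 (SE, adjusted p = 0.0105). Adm stood at 0.366, 0.489 and 0.793 CPM in 2D WT, 0.519, 0 and 0.493 in 2D Cxcl5-/-, 38.3, 39.01 and 36.9 in 3D WT and 2.81, 2.58 and 4.34 in 3D Cxcl5-/-. Both 2D groups were under 1 CPM and overlapped, and in 3D the WT samples lay far above the knockout-labelled ones. The low 2D level makes the value uncertain, and the adjusted p was 0.0551 with DESeq2 and 0.0686 without 2D Cxcl5-/- replicate 1; without replicate 2 of that group the value was -3.45.

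Other members followed by role. Ero1a, an oxidase of disulfide bond formation in the endoplasmic reticulum, had an interaction of -1.91 ± 0.13 (SE, adjusted p = 6.63e-07). Car9, a carbonic anhydrase at the cell surface, had -1.79, and Hilpda, a lipid droplet protein, -1.69. The mitophagy receptors Bnip3 and Bnip3l had -1.22 and -1.02, the collagen-modifying enzymes Plod2 and P4ha1 -1.10 and -0.75, and the angiogenic factor Vegfa -0.67. Bnip3 read 77.6, 79.7 and 77.5 CPM in 2D WT, 77.2, 60.8 and 71.6 in 2D Cxcl5-/-, 1158, 1078 and 1183 in 3D WT and 497, 388 and 429.5 in 3D Cxcl5-/-, and the last lay above all 2D samples. Pdk1, the kinase that closes pyruvate dehydrogenase, and Vldlr, a lipoprotein receptor, were raised by genotype in 2D (0.74 and 1.03) and not called in 3D (-0.18 and 0.18), with interactions of -0.92 and -0.86. The other 7 members were not called, among them the demethylases Kdm3a and Kdm4b (-0.20 and 0.11), Angptl4 (0.15), P4ha2 (-0.28) and Car12, which averaged 0.153 CPM.

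Enzymes of glycolysis showed the same direction. Of 24 entries tested, 19 were more negative and 0 more positive, with a median of -0.82, and median genotype effects of -0.11 in 2D and -0.97 in 3D. Under library totals the median was -0.45 and 10 were negative. Hk1, the hexokinase that commits glucose, had an interaction of -1.18 ± 0.16 (SE, adjusted p = 1.64e-04). Hk1 stood at 92.1, 83.9 and 105 CPM in 2D WT, 99.8, 102 and 97.9 in 2D Cxcl5-/-, 291, 236 and 259 in 3D WT and 108, 120.5 and 142 in 3D Cxcl5-/-. Samples labelled 3D Cxcl5-/- lay little above the 2D samples and far below 3D WT. Gapdh had -1.69 ± 0.13 (SE, adjusted p = 2.02e-06), with 214, 189 and 187 CPM in 3D WT against 54.2, 46.2 and 50.4 in 3D Cxcl5-/-. Gapdh has many processed pseudogenes that may share its reads, so its level is uncertain, and the same holds for Aldoa, Pgk1, Eno1 and Ldha.

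The values were alike along the pathway. Pgm1 had -0.99, Eno1 -0.93, Pgk1 -0.92, Aldoa -0.91, Ldha -0.88, Pkm -0.88, Pfkp -0.74, Tpi1 -0.73 and Pgam1 -0.66, and the lactate carrier Slc16a1 had -0.89. Hk2, the inducible hexokinase, had a smaller value of -0.42. The glucose transporter Slc2a1, an established HIF target, was not called in the interaction (-0.31, adjusted p = 0.134), and it was lower in the knockout-labelled samples in both cultures (-0.41 and -0.72). Pfkl, Aldoc, Eno2 and Slc16a3 were not called either. In the pentose phosphate branch 3 of 7 genes were more negative (Pgls, Taldo1 and Rpe, and 5 without 3D WT replicate 2) and 0 more positive, while G6pdx, its first enzyme, had -0.27, adjusted p = 0.0767.

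Genes of cholesterol synthesis and uptake had interaction calls in 1 direction. Of 25 tested, 22 were more negative and 0 more positive, with a median of -1.07 and medians of 0.02 in 2D and -1.12 in 3D. From 2D to 3D the median rose by 1.07 in WT and stood at 0.02 in Cxcl5-/-. Under library totals 19 were negative, with a median of -0.70. Msmo1, a sterol demethylase, had -1.42 ± 0.14 (SE, adjusted p = 1.03e-05). Msmo1 stood at 357, 343 and 358 CPM in 2D WT, 393, 366 and 367 in 2D Cxcl5-/-, 955, 835 and 944 in 3D WT and 415, 319.9 and 354 in 3D Cxcl5-/-. The 3D Cxcl5-/- samples fell within or near the range of the 2D samples, and 3D WT lay above all others without overlap.

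Mvd, which makes isopentenyl diphosphate, had -1.35 ± 0.15 (SE, adjusted p = 2.96e-05), with 133, 103 and 109 CPM in 3D WT and 47.7, 41.4 and 44.5 in 3D Cxcl5-/-. Hmgcs1, the synthase at the start of the pathway, had -1.18, and Sqle, the squalene epoxidase, -1.04. Insig1, which holds back the pathway, moved the same way (-1.08). Srebf2, which encodes the transcription factor of the pathway, was not called (0.09, adjusted p = 0.84), and neither was Ebp (-0.33). Of 16 genes of fatty acid synthesis 8 were more negative and 1 (Elovl5, 0.71) more positive. Acss2, which makes acetyl-CoA from acetate, led with -2.63 ± 0.14 (SE, adjusted p = 1.05e-07) and Acly, which makes it from citrate, had -1.16, whereas Fasn (0.23) and Acaca (0.28) were not called. Elovl5 was called higher in Cxcl5-/- in both cultures (0.62 in 2D and 1.33 in 3D). Under library totals only 3 of the 16 were negative.

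Genes of serine synthesis and one-carbon metabolism and targets of ATF4 are known as a shared response to amino acid shortage and to stress. Of 15 one-carbon genes 11 were more negative and 1 more positive (Aldh1l1, 0.82), with a median of -0.85, and the median change from 2D to 3D was -0.30 in WT and -1.47 in Cxcl5-/-. Psat1, a transaminase of serine synthesis, had -1.50 ± 0.11 (SE, adjusted p = 1.18e-06). Psat1 stood at 781, 762 and 776 CPM in 2D WT, 1042, 966 and 948 in 2D Cxcl5-/-, 718, 648 and 650.0 in 3D WT and 317, 282 and 308 in 3D Cxcl5-/-. The knockout-labelled samples were the higher in 2D and the lower in 3D, with no overlap in either. Phgdh, the first enzyme, had -1.18, Psph -1.41, and mitochondrial Mthfd2 -1.35. Under library totals 7 of the 15 were negative, with a median of -0.50.

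Of 18 genes of the integrated stress response 16 were more negative and 0 more positive, with a median of -0.98 that was -0.61 under library totals. Atf4 had -1.41, Asns, the asparagine synthetase, -1.93, Chac1, which degrades glutathione, -1.75 and Ddit3 -0.87. Trib3, a pseudokinase induced by ATF4, had -2.08 ± 0.24 (SE, adjusted p = 3.84e-05), with genotype effects of 0.77 in 2D and -1.31 in 3D, both called. Trib3 stood at 9.13, 5.83 and 7.79 CPM in 2D WT, 12.7, 13.9 and 12.2 in 2D Cxcl5-/-, 44.4, 33.2 and 46.6 in 3D WT and 18.6, 17.5 and 14.2 in 3D Cxcl5-/-. Here too the knockout-labelled samples lay above WT in 2D and below it in 3D. Atf3, an inducible stress factor, had -3.92 ± 0.30 (SE, adjusted p = 1.69e-06), with 31.4, 32.3 and 32.3 CPM in 3D WT and at most 2.68 in any other sample. Chaperones of the endoplasmic reticulum had 2 of 20 more negative and 4 more positive (2 without 2D Cxcl5-/- replicate 2 or 3D WT replicate 3) and a median of 0.05, and under library totals 1 and 10 with a median of 0.42. Hspa5, their main sensor chaperone, had -0.23, adjusted p = 0.249, Pdia3 0.88 and Sdf2l1 0.94. Beside the chaperone counts, 16.1% of all genes were more negative and 11.1% more positive. For genes averaging 50 CPM or more the shares were 36.3% and 12.1%.

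Genes of glutathione, thioredoxin and iron handling went both ways, with 10 of 33 more negative and 5 more positive, and the sign of their median depended on scaling (-0.29 with TMM and 0.06 with library totals). They were 5 and 10 under library totals. Over all genes tested with TMM the shares were 16.1% and 11.1%. Cth, which makes cysteine, was among the more negative with -3.03 ± 0.23 (SE, adjusted p = 1.52e-06), as were Slc7a11, the cystine carrier, -1.77, its partner Slc3a2 -1.11, and Hmox1, the haem oxygenase, -1.49. On the positive side were Slc40a1 (ferroportin, the iron exporter), Txnrd1, Fth1, Nqo1 and Gsr, of which all but Slc40a1 lay between 0.41 and 0.54. This positive count of 5 was 2 or 3 in 9 of the 12 fits that left out 1 sample. Slc40a1 stood at 13.96, 17.4 and 15.2 CPM in 2D WT, 23.4, 23.3 and 26.2 in 2D Cxcl5-/-, 18.5, 20.9 and 22.4 in 3D WT and 128, 138 and 128 in 3D Cxcl5-/-, with an interaction of 2.02 ± 0.14 (SE, adjusted p = 6.63e-07). Samples labelled 3D Cxcl5-/- lay far above all others. Gpx4, which reduces lipid peroxides, was not called (-0.30, adjusted p = 0.24), nor were Tfrc, the transferrin receptor (0.01), and Gclm (-0.07).

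Immediate-early genes and their induced phosphatases were called higher in 3D than in 2D in WT for 20 of 24, beside 22.2% of all genes. In Cxcl5-/- 9 were higher and 6 lower, beside 28.7% and 28.2% of all genes. Of 24 tested, 14 were more negative and 1 more positive (2 without 3D Cxcl5-/- replicate 1), with a median of -1.10 and median changes from 2D to 3D of 1.37 in WT and 0.08 in Cxcl5-/-. Ier3 had -2.79 ± 0.23 (SE, adjusted p = 3.17e-06), Jun -2.11, Junb -1.68, Fos -2.11, Klf4 -1.94, and Dusp6, the phosphatase that limits ERK, -1.35. Egr1 was the exception at 2.02 ± 0.35 (SE, adjusted p = 9.36e-04), with 8.96, 9.62 and 8.39 CPM in 3D WT and 15.5, 23.1 and 17.2 in 3D Cxcl5-/-. The EGFR ligand Areg and the prostaglandin synthase Ptgs2 were 2 of the 6 genes with the most negative called values among those averaging at least 5 CPM, once predicted genes such as the satellite-like ones were left out. Areg stood at 18.3, 16.8 and 17.5 CPM in 2D WT, 13.04, 11.6 and 10.9 in 2D Cxcl5-/-, 55.2, 59.7 and 53.6 in 3D WT and 1.77, 1.70 and 1.19 in 3D Cxcl5-/-, an interaction of -4.62 ± 0.18 (SE, adjusted p = 7.65e-09). Ptgs2 stood at 175, 169 and 181 CPM in 2D WT, 206, 179.7 and 197 in 2D Cxcl5-/-, 936, 879 and 1044 in 3D WT and 61.8, 64.1 and 56.2 in 3D Cxcl5-/-, an interaction of -4.12 ± 0.13 (SE, adjusted p = 6.41e-10). Both rose with 3D culture in WT and fell with it in Cxcl5-/-, and their 3D groups were more than 10-fold apart in every sample.

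Myc, the growth-promoting transcription factor (chr15:61985391-61990374, plus strand), had -1.41 ± 0.16 (SE, adjusted p = 4.45e-05). Myc stood at 17.01, 18.7 and 19.2 CPM in 2D WT, 14.5, 16.5 and 12.5 in 2D Cxcl5-/-, 34.1, 36.9 and 33.9 in 3D WT and 9.12, 11.4 and 10.7 in 3D Cxcl5-/-. All 3D WT samples lay above, and all 3D Cxcl5-/- samples below, every 2D sample, while the 2D groups did not overlap but did not pass either (adjusted p = 0.112). Its network moved in both directions. The antagonists Mxd1 and Mxi1 were more negative (-1.58 and -1.40; Mxi1 is also counted among the hypoxia targets), Mxd4 was more positive at 1.66 ± 0.16 (SE, adjusted p = 9.01e-06), and Max, the shared partner, had 0.14, adjusted p = 0.634. Mxd4 was higher in Cxcl5-/- in both cultures (1.035 in 2D and 2.70 in 3D, both called). In the whole network 5 of 11 were more negative and 2 more positive. The negative count was 3 without any 1 of 2D WT replicate 2, 2D Cxcl5-/- replicate 1 or 3, or 3D Cxcl5-/- replicate 2, and the sign of the median, -0.04, flipped with library totals (0.21).

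Ribosome production is a process that MYC is known to drive. Of 24 genes of ribosome biogenesis 8 were more negative and 1 more positive, with a median of -0.26 that was 0.10 under library totals, where 0 were negative; the count was 5 without 2D Cxcl5-/- replicate 1 or without 3D Cxcl5-/- replicate 2. From 2D to 3D their median change was -1.18 in WT and -1.45 in Cxcl5-/-. Over all genes 16.1% were more negative and 11.1% more positive, and over genes averaging 50 CPM or more 36.3% and 12.1%. Nop2 had -0.69 ± 0.12 (SE, adjusted p = 0.00115), with an adjusted p of 0.14 under library totals. Ncl, the nucleolin gene, was on the positive side at 0.76 ± 0.23 (SE, adjusted p = 0.0271), which no longer passed in 7 of the fits that left out 1 sample (2D WT replicate 2, 2D Cxcl5-/- replicate 1 or 2, 3D WT replicate 1 or 3, 3D Cxcl5-/- replicate 2 or 3). Of 84 ribosomal protein genes 63 were more negative and 0 more positive, with a median of -0.73, a count that was 39 without 2D Cxcl5-/- replicate 1 and 31 under library totals. These short genes have many pseudogenes that may share reads.

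Cell division genes fell with 3D culture in both genotypes and further in Cxcl5-/-. Of 30 mitotic genes 28 were more negative and 0 more positive, with a median interaction of -0.98 and median changes from 2D to 3D of -0.92 in WT and -1.95 in Cxcl5-/-. Anln, a scaffold of the cleavage furrow, had -1.59 ± 0.10 (SE, adjusted p = 5.01e-07). Anln stood at 599, 631 and 641 CPM in 2D WT, 601, 579 and 554 in 2D Cxcl5-/-, 496, 458 and 506 in 3D WT and 148, 149 and 154 in 3D Cxcl5-/-. The 2D groups were alike, 3D WT lay slightly lower and 3D Cxcl5-/- about 3-fold lower again. Ect2, the exchange factor of the same furrow, had -1.48, Ccna2 -1.43 and Birc5 -1.33. Of 40 replication genes 28 were more negative and 0 more positive (median -0.61), led by Pole2 at -1.28 ± 0.13 (SE, adjusted p = 1.44e-05) and Cdc45 at -1.23; 14 were negative under library totals. Of 67 histone genes 31 were more negative and 0 more positive, but this was 16 under library totals, 20 without 2D Cxcl5-/- replicate 1 and 58 without 3D Cxcl5-/- replicate 1. Beside these division counts, 16.1% of all genes were more negative and 11.1% more positive. For genes averaging 50 CPM or more the shares were 36.3% and 12.1%. Some histone genes differed widely within a group, such as H2ac19 at 9.67, 361 and 319 CPM in 2D WT. Whether such members share reads was not tested.

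A joint list of CDK inhibitors, which hold back division, and p53 targets was mostly more negative as well. Of 17 tested 10 were more negative and 1 more positive, with a median of -1.01. Cdkn1a, the p21 inhibitor, had -4.29 ± 0.52 (SE, adjusted p = 6.13e-05). Cdkn1a stood at 9.19, 11.7 and 9.82 CPM in 2D WT, 12.1, 11.9 and 10.8 in 2D Cxcl5-/-, 69.7, 67.4 and 66.4 in 3D WT and 1.06, 4.99 and 5.73 in 3D Cxcl5-/-. All 3D WT samples lay far above, and all 3D Cxcl5-/- samples below, every 2D sample. Ccng1, a p53 target, had -2.02 ± 0.12 (SE, adjusted p = 3.46e-07) with opposite genotype effects of 0.74 in 2D and -1.28 in 3D, Gdf15 had -1.96, Cdkn1b -1.20, Bax -1.05 and Mdm2 -0.67. Trp53 itself was not called (-0.48, adjusted p = 0.14). The CDK inhibitors Cdkn2c and Cdkn2b were not called either (-0.10, adjusted p = 0.706, and 0.48, adjusted p = 0.457). The same held for Zmat3, Plk2 and Sesn1 (-0.33, 0.09 and 0.30). Fas, the death receptor, was more positive at 1.49 ± 0.16 (SE, adjusted p = 2.16e-05). Its level was higher in Cxcl5-/- in both cultures (0.66 in 2D and 2.15 in 3D, both called).

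Mitochondria oxidise pyruvate in the citric acid cycle and pass the electrons to a respiratory chain encoded partly in their own genome. Of 25 genes of pyruvate entry and the citric acid cycle 13 were more negative and 4 more positive (median -0.40), but the negative values were small, from -0.31 (Cs) to -0.66 (Idh3g), and none of the 25 was negative under library totals. The negative count was 7 without 2D Cxcl5-/- replicate 1 and 8 without 3D Cxcl5-/- replicate 2. The gene that stood out was Pcx, pyruvate carboxylase, which refills oxaloacetate, at 2.53 ± 0.22 (SE, adjusted p = 4.30e-06). Pcx stood at 90.2, 71.1 and 92.1 CPM in 2D WT, 84.4, 76.4 and 86.1 in 2D Cxcl5-/-, 45.2, 27.00 and 38.7 in 3D WT and 222, 193 and 212 in 3D Cxcl5-/-. WT fell with 3D culture and Cxcl5-/- rose, with no overlap between the 3D groups, while the 2D groups overlapped. Mpc2, Ogdh and Pdhx were the other 3 on the positive side (0.64, 0.60 and 0.50).

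Of 72 nuclear genes of the respiratory chain 18 were more negative and 0 more positive, beside 16.1% and 11.1% of all genes and 36.3% and 12.1% of genes averaging 50 CPM or more (median -0.31, and 0.04 under library totals), and the count rested on single samples, being 58 without 3D Cxcl5-/- replicate 1, 6 without replicate 2 and 11 without replicate 3 of that group, 7, 10 and 11 without 2D Cxcl5-/- replicates 1, 2 and 3, 9 without 2D WT replicate 2 and 10 without 3D WT replicate 1. Atp5g2 had -1.06 ± 0.22 (SE, adjusted p = 0.00365) and Cox6a1 -0.89 ± 0.19 (SE, adjusted p = 0.00363). Of the 13 protein genes of the mitochondrial genome 6 were more positive and 0 more negative. Among them the complex I subunits mt-Nd4, mt-Nd2, mt-Nd5 and mt-Nd1 had 1.93, 2.16, 1.57 and 0.415. The complex I subunits mt-Nd3, mt-Nd4l and mt-Nd6 were not called (0.12, 0.41 and 0.02). For mt-Nd2 the 2D WT samples read 25.5, 25.2 and 77.55 CPM. In complex IV, mt-Co1 had -0.47, adjusted p = 0.0735. DESeq2 called 2 of the 13 more negative, and edgeR 2 without 2D WT replicate 3 and 3 without 3D Cxcl5-/- replicate 1. Of 78 mitochondrial ribosomal protein genes 30 were more negative and 1 more positive (0 in 10 of the 12 fits that left out 1 sample), which was 16 negative without 2D Cxcl5-/- replicate 1, 58 without 3D Cxcl5-/- replicate 1 and 6 under library totals.

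**Figure D4:**
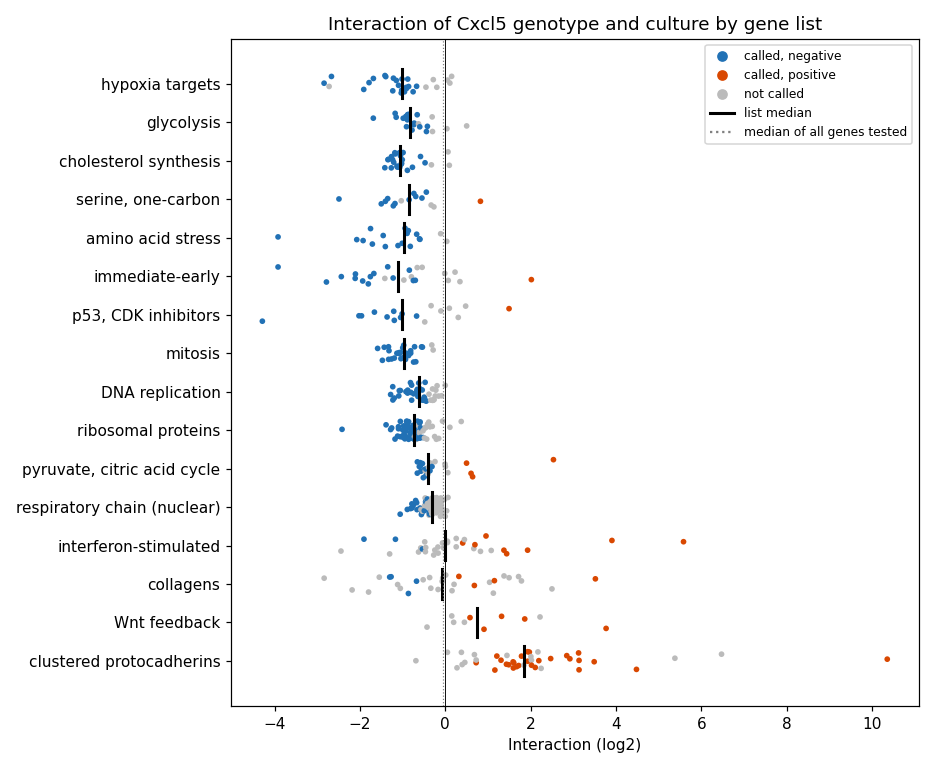
Interaction (x axis, log2) of every tested gene in 16 lists, 1 point per gene, blue where called more negative, orange where called more positive and grey where not called; bars mark list medians and the dotted line the median of all genes tested. Hypoxia, glycolysis, cholesterol, serine, stress and division genes lie left of 0 as groups, interferon-stimulated genes and collagens straddle it, and Wnt feedback genes and clustered protocadherins lie to the right.

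**Figure D5:**
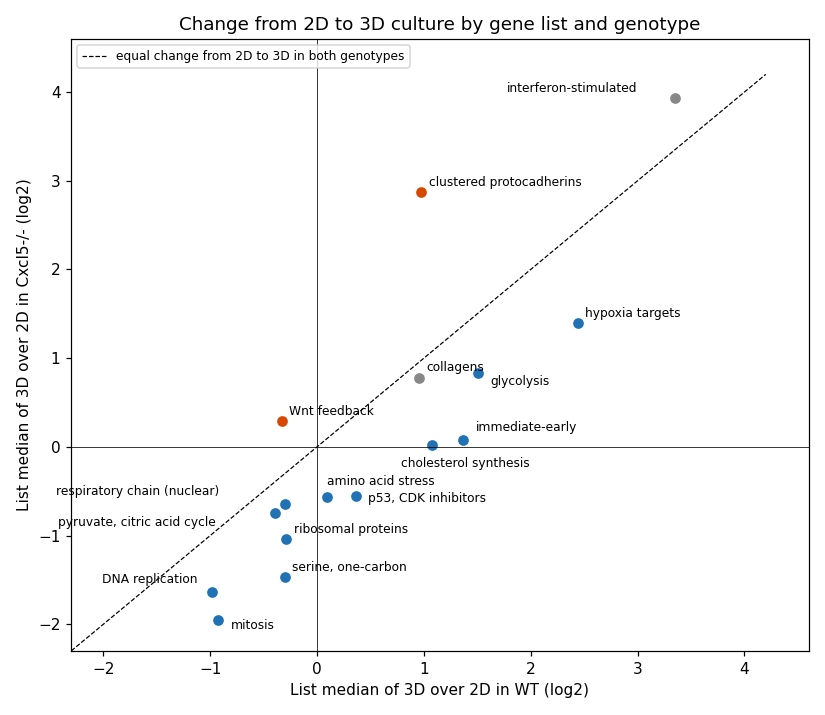
Median change from 2D to 3D (log2) of the same 16 lists in Cxcl5-/- (y axis) against WT (x axis), with the line of equal change; the vertical distance from the line is close to the interaction, and colour follows the median interaction (blue below -0.3, orange above 0.3, grey between). Cholesterol and immediate-early genes sit on the right near 0 on the y axis, while mitosis and replication genes lie below 0 on both axes.

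Genes of the matrix and of mesenchymal cells had calls in both directions, as did all genes tested (16.1% more negative and 11.1% more positive). Of 14 genes of epithelial and mesenchymal state 4 were more negative (Vim, S100a4, Snai2 and the N-cadherin gene Cdh2, at -1.91) and 4 more positive (Fn1, Zeb1, Zeb2 and Tjp1). Of 17 matrix metalloproteinase and Timp genes 2 were more negative (1 without 2D Cxcl5-/- replicate 1) and 4 more positive. Of 9 fibroblast markers 1 was more negative and 4 more positive, while Dcn and Lum, defining fibroblast genes, were not called. Both were at 0 in 2D Cxcl5-/-. In 3D they were lower in Cxcl5-/- than in WT (-3.74, adjusted p = 7.82e-07, and -1.27, adjusted p = 0.0208). Col1a2, not called in the interaction, was also lower in 3D (-1.06, adjusted p = 0.0314). Pdgfra, Pdgfrb, Col3a1 and Acta2 were higher there. Pdgfra, the receptor for platelet-derived growth factor (chr5:75152292-75198215, plus strand), had the largest positive interaction of the genes named here for opposite genotype effects, at 4.66 ± 0.13 (SE, adjusted p = 3.36e-10). Pdgfra stood at 22.5, 24.2 and 22.4 CPM in 2D WT, 8.31, 9.49 and 9.51 in 2D Cxcl5-/-, 20.4, 23.6 and 20.1 in 3D WT and 194, 225 and 223 in 3D Cxcl5-/-. The knockout-labelled samples lay wholly below WT in 2D and wholly above it in 3D, with effects of -1.34 and 3.33. Fn1, fibronectin, had 1.42 ± 0.23 (SE, adjusted p = 5.03e-04). Fn1 stood at 947, 1277 and 936 CPM in 2D WT, 833, 1012 and 1052 in 2D Cxcl5-/-, 2847, 2880.1 and 3400.3 in 3D WT and 5698, 8655 and 8007 in 3D Cxcl5-/-. It rose with 3D culture in both genotypes, and the 3D groups did not overlap. Acta2, smooth muscle actin, had 1.71 ± 0.18 (SE, adjusted p = 1.84e-05), Tns1, an adhesion adaptor, 1.48 ± 0.25 (SE, adjusted p = 8.43e-04), and Col3a1, a fibrillar collagen, 1.15 ± 0.11 (SE, adjusted p = 1.26e-05).

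Col3a1 fell in 2D and rose in 3D in the knockout-labelled samples (-0.42 and 0.73, both called). Collagens as a group did not move one way, with 4 of 30 more negative (2 without 2D Cxcl5-/- replicate 1) and 4 more positive and a median of -0.07 that was 0.35 under library totals, and Col16a1 was on the negative side at -0.87 ± 0.16 (SE, adjusted p = 0.00142), with an adjusted p of 0.0816 under library totals. Mmp2, a gelatinase, was raised in both cultures, by 2.95 in 2D and 4.42 in 3D, and its interaction was 1.47 ± 0.23 (SE, adjusted p = 4.69e-04). Its inhibitor Timp1 had -1.40 ± 0.17 (SE, adjusted p = 5.97e-05). Vim, the intermediate filament of mesenchymal cells, was on the negative side at -1.65 ± 0.13 (SE, adjusted p = 2.09e-06), with 4061, 3523 and 3843 CPM in 3D WT and 679, 639 and 782 in 3D Cxcl5-/-. Vim was also lower in Cxcl5-/- in 2D (-0.79, adjusted p = 9.39e-05). Among laminins and integrins 6 of 28 were more negative, Itga6 at -1.45 ± 0.32 (SE, adjusted p = 0.00445) among them, and 4 more positive, and the median of -0.19 was 0.21 under library totals. These counts and those of collagens stand beside 16.1% and 11.1% of all genes. Of 7 ductal and epithelial markers tested 2 were more negative (the keratins Krt8 and Krt18, -1.70 and -2.18) and 2 more positive (the transcription factors Pdx1 and Sox9, 0.63 and 1.55). Krt18 and Pdx1 were already called in the same direction in 2D (-0.39 and 0.70). Krt7 had 0.77, adjusted p = 0.0829. Krt19 read 50.3, 36.5 and 44.4 CPM in 3D WT and 0, 0 and 0.397 in 3D Cxcl5-/-, and its interaction was not called, with 2D Cxcl5-/- at 0.

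Targets of YAP and TEAD split. Ccn2 and Ccn1 encode related matricellular proteins and are both induced by YAP. Ccn2 had 2.82 ± 0.11 (SE, adjusted p = 7.65e-09) and Ccn1 -2.42 ± 0.14 (SE, adjusted p = 2.15e-07). Ccn2 stood at 56.3, 53.4 and 52.4 CPM in 2D WT, 77.5, 84.3 and 72.8 in 2D Cxcl5-/-, 17.9, 19.5 and 19.8 in 3D WT and 190.1, 189 and 205 in 3D Cxcl5-/-. Ccn1 stood at 39.5, 30.5 and 34.6 CPM in 2D WT, 56.9, 59.9 and 61.7 in 2D Cxcl5-/- and 82.3, 77.3 and 85.1 in 3D WT, and lay between 23.8 and 29.0 in 3D Cxcl5-/-. In 2D the knockout-labelled samples were above WT for both genes, and in 3D they were above for Ccn2 and below for Ccn1. In the whole list 6 of 20 were more negative and 4 more positive, which were 2 and 8 under library totals, with Yap1 at 0.23, adjusted p = 0.214 and Tead1 at 1.40. Actin and focal adhesion genes also went both ways, with 14 of 38 more negative (among them Actb at -0.69) and 7 more positive, counts that were 5 and 10 under library totals, and the positive count was 4 when any 1 of 7 samples was left out (2D WT replicates 1 and 2, 2D Cxcl5-/- replicate 2, 3D WT replicates 2 and 3, 3D Cxcl5-/- replicates 2 and 3). In TGF-beta signalling 5 of 21 were more negative, led by Inhba, the activin subunit, at -2.33, and 3 more positive (5 without 3D Cxcl5-/- replicate 1 and 7 under library totals), led by Ltbp3 at 2.17. Beside the YAP, actin and TGF-beta counts, 16.1% of all genes were more negative and 11.1% more positive. For genes averaging 50 CPM or more the shares were 36.3% and 12.1%.

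Other genes with opposite genotype effects are described next. Kif26b, an unconventional kinesin, had 3.89 ± 0.19 (SE, adjusted p = 5.49e-08). Kif26b stood at 69.9, 64.2 and 54.9 CPM in 2D WT, 18.4, 21.7 and 24.1 in 2D Cxcl5-/-, 29.1, 29.3 and 28.8 in 3D WT and 118, 167 and 153 in 3D Cxcl5-/-. Ass1, the argininosuccinate synthase of arginine production, had 2.55 ± 0.19 (SE, adjusted p = 1.13e-06). Ass1 stood at 39.9, 29.7 and 40.1 CPM in 2D WT, 13.7, 14.5 and 13.7 in 2D Cxcl5-/-, 13.4, 12.3 and 14.96 in 3D WT and 28.1, 27.9 and 35.1 in 3D Cxcl5-/-. For both genes the knockout-labelled samples lay wholly below WT in 2D and wholly above it in 3D, and Cebpa, a transcription factor of differentiation, did the same at 2.50 ± 0.32 (SE, adjusted p = 8.93e-05), with 6.63, 3.98 and 3.67 and 1.78, 2.40 and 1.60 CPM in 2D WT and 2D Cxcl5-/- and 8.45, 6.10 and 6.44 and 17.5, 15.4 and 15.3 in the 3D groups.

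The reverse order was seen for Mal, a membrane proteolipid, at -4.80 ± 0.28 (SE, adjusted p = 2.15e-07). Mal stood at 3.31, 2.55 and 3.35 CPM in 2D WT, 12.7, 12.3 and 11.99 in 2D Cxcl5-/-, 7.23, 6.87 and 8.10 in 3D WT and 0.884, 1.47 and 0.855 in 3D Cxcl5-/-. Selenbp1, a selenium-binding protein, had -2.93 ± 0.19 (SE, adjusted p = 4.69e-07), with a rise from 2D to 3D in both genotypes. Selenbp1 stood at 7.97, 6.57 and 8.86 CPM in 2D WT, 21.99, 20.5 and 20.3 in 2D Cxcl5-/-, 149.5, 102 and 120.1 in 3D WT and 45.6, 41.9 and 43.3 in 3D Cxcl5-/-. Plag1, a zinc finger factor, had -2.55 ± 0.31 (SE, adjusted p = 6.28e-05), and Aldh1l2, the mitochondrial formyltetrahydrofolate dehydrogenase, had -2.49 ± 0.12 (SE, adjusted p = 5.49e-08). Aldh1l2 stood at 15.2, 15.1 and 15.2 CPM in 2D WT, 32.9, 30.7 and 29.2 in 2D Cxcl5-/-, 63.3, 56.5 and 56.6 in 3D WT and 20.8, 19.7 and 23.2 in 3D Cxcl5-/-. For Mal, Selenbp1 and Aldh1l2 the knockout-labelled samples lay wholly above WT in 2D and wholly below it in 3D, and this also held for Plag1 (2.16, 2.88 and 1.63, then 4.88, 3.83 and 5.64 in 2D and 13.3, 13.2 and 18.6, then 6.23, 4.84 and 5.54 in 3D).

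Cd109, a surface protein that binds TGF-beta, was more negative at -4.04 ± 0.22 (SE, adjusted p = 1.02e-07), with 61.04, 59.4 and 67.1 CPM in 3D WT and 3.85, 6.24 and 6.32 in 3D Cxcl5-/-. Cldn1, a tight junction protein, had a fitted value of -4.04 that moved to -3.22 without 2D Cxcl5-/- replicate 1 and to -4.63 without 3D Cxcl5-/- replicate 3. Cldn1 stood at 3.68, 3.05 and 2.88 CPM in 2D WT, 0.222, 0.113 and 0.0308 in 2D Cxcl5-/-, 18.3, 15.02 and 16.8 in 3D WT and 0, 0.0520 and 0.0611 in 3D Cxcl5-/-. The knockout-labelled libraries were near 0 in both cultures, so the value rests on a few counts there.

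Several of the most positive fitted values belonged to genes that were near or at 0 in at least 1 group, and these values depend on the small count added in the fit. Inmt, a methyltransferase, had 0.0770, 0 and 0 CPM in 2D WT, 0 in all 3D WT samples, 1.79, 1.90 and 2.45 in 2D Cxcl5-/- and 29.7, 25.5 and 25.7 in 3D Cxcl5-/-, and its fitted value of 7.19 was 3.70 and not called without 2D WT replicate 1, whose 4 counts were the only ones in the WT libraries. Gpr149, a receptor of unknown ligand, and Ifih1 had 0 counts in all 2D Cxcl5-/- libraries and were lower in Cxcl5-/- than in WT in both cultures. In 3D Cxcl5-/- Gpr149 read 0.110, 0.728 and 0.580 CPM, against 16.1, 14.2 and 16.9 in 3D WT and 6.72, 7.28 and 6.58 in 2D WT, so that its positive value comes with levels below WT in both cultures. Aox3, an aldehyde oxidase, read 22.7, 19.7 and 19.7 CPM in 3D Cxcl5-/- and 1.30, 1.28 and 0.590 in 3D WT, and was at 0 in 4 of the 6 2D libraries. Its fitted value of 6.37 was 1.21 and not called without 2D WT replicate 3 and 9.47 without 2D Cxcl5-/- replicate 3.

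Mfsd4a, a transporter-like protein, had the highest fitted value among called genes averaging at least 5 CPM, at 7.62 ± 1.61 (SE, adjusted p = 0.00356). Mfsd4a stood at 1.37, 32.5 and 1.20 CPM in 2D WT, 1.08, 1.19 and 1.43 in 2D Cxcl5-/-, 1.76, 1.45 and 1.49 in 3D WT and 36.8, 56.6 and 4.35 in 3D Cxcl5-/-. Single samples moved it: 2D WT replicate 2 stood far from the other 2 of its group and 3D Cxcl5-/- ranged from 4.35 to 56.6 CPM. Its value was 4.38 without 2D WT replicate 2 and 6.95 without 3D Cxcl5-/- replicate 2. Ms4a4d, a tetraspan membrane protein, had 5.27 ± 0.28 (SE, adjusted p = 1.05e-07). Ms4a4d stood at 9.86, 9.06 and 10.5 CPM in 2D WT, 0.193, 0.290 and 0.154 in 2D Cxcl5-/-, 11.8, 9.62 and 13.2 in 3D WT and 11.3, 8.22 and 9.54 in 3D Cxcl5-/-. It was near 0 in 2D Cxcl5-/- and in no other group, and the 3D groups overlapped in level.

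Interferon-stimulated genes gave no common interaction. They were higher in 3D than in 2D in both genotypes, by a median of 3.35 in WT and 3.94 in Cxcl5-/-, and of 32 tested 3 were more negative (6 without 3D Cxcl5-/- replicate 1) and 8 more positive, with a median of 0.00 that was 0.36 under library totals, where 13 were positive. Ifit1, an RNA-binding effector, had 1.93 ± 0.26 (SE, adjusted p = 1.52e-04). Ifit1 stood at 8.92, 9.51 and 9.19 CPM in 2D WT, 4.36, 4.79 and 3.45 in 2D Cxcl5-/-, 68.8, 74.95 and 77.5 in 3D WT and 173, 122 and 89.7 in 3D Cxcl5-/-. Irf7 had -0.63, adjusted p = 0.0544 and Isg15 0.82, adjusted p = 0.0627, neither of them called, while Oas1a was more negative at -1.91. Ifih1, the MDA5 sensor, read 0.482, 1.02 and 0.862 CPM in 2D WT, 0 in 2D Cxcl5-/-, 17.1, 17.6 and 21.1 in 3D WT and 1.96, 2.05 and 2.92 in 3D Cxcl5-/-. Of 13 genes of MHC class I presentation 2 were more negative and 2 more positive, but without 1 sample the former was 1 in 9 of 12 fits and the latter 0 in 9 of 12, and H2-K1 was at 0.09, adjusted p = 0.784 and B2m at -0.03. Under library totals they were 1 and 8. One of the positive calls was Psmb8, an immunoproteasome subunit, whose value rests on a group near 0: it read 1.70, 1.74 and 1.58 CPM in 2D WT, 0.0440, 0 and 0 in 2D Cxcl5-/-, 51.6, 55.8 and 56.3 in 3D WT and 3.39, 1.94 and 5.21 in 3D Cxcl5-/-. It lay lower in the knockout-labelled samples in both cultures. Beside the interferon and MHC counts, 16.1% of all genes were more negative and 11.1% more positive.

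Among chemokines and NF-κB genes 4 of 16 were more negative and 5 more positive, beside 16.1% and 11.1% of all genes. The positive calls were C3, Cxcl5, Cxcl3, Ccl2 and Ccl7, and the other chemokine tested, Ccl5, had -0.75, adjusted p = 0.513. Cxcl3 had 1.23, and the monocyte chemokines Ccl2 and Ccl7 had 1.14 and 1.38, where Cxcl5-/- lay below WT in 2D (-1.55 and -1.85) and was not called in 3D (-0.41 and -0.47). C3, the complement component, had 2.67 ± 0.20 (SE, adjusted p = 1.35e-06). C3 stood at 2.33, 2.19 and 2.56 CPM in 2D WT, 3.33, 5.003 and 4.54 in 2D Cxcl5-/-, 17.3, 16.9 and 14.5 in 3D WT and 162, 204 and 196 in 3D Cxcl5-/-. Its level rose with 3D in both genotypes, and the knockout-labelled samples lay highest in each culture. Tnfaip3, the A20 brake on NF-κB, was more negative at -1.42 ± 0.16 (SE, adjusted p = 3.00e-05), as were Csf1 (-1.17) and Nfkbia (-0.88).

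Clustered protocadherins, adhesion proteins made from gene clusters of similar sequence, had calls in 1 direction. Of 43 tested 27 were more positive and 0 more negative, with a median of 1.84 and median genotype effects of -0.26 in 2D and 1.40 in 3D. Most are low, 8 were called when genes under 5 CPM were left out of the fit, and members share sequence and possibly reads. Of 10 Wnt feedback and pathway genes 5 were more positive and 0 more negative, or 1 without 3D WT replicate 2 (Lgr6 3.77, Axin2 1.86, Tcf7l2 1.32, Znrf3 0.91 and Apc 0.58), and Ctnnb1 had 0.15, adjusted p = 0.296. Axin2 averaged 2.07 CPM. Lgr4, Tcf7 and Notum were not called (0.45, 0.20 and -0.43). Rnf43 was not called either (2.22, adjusted p = 0.0976), and it was lower in Cxcl5-/- in both cultures (-5.74 in 2D and -3.52 in 3D, both called). Among 26 genes of autophagy and lysosomes 6 were more positive, among them Gpnmb, a lysosomal glycoprotein, at 2.22, and 2 more negative (5 without 3D Cxcl5-/- replicate 1, 1 without replicate 2 or without 2D Cxcl5-/- replicate 1). Under library totals 14 were positive and 0 negative, with a median of 0.45 beside 0.09 with TMM. Among 37 proteasome genes 12 were more negative and 2 more positive with a median of -0.20 (0.16 under library totals, with 2 and 6), and the former was 3 to 7 without any 1 of 2D WT replicate 2, 2D Cxcl5-/- replicate 1 or 3, 3D WT replicate 1 or 3D Cxcl5-/- replicate 2. The positive count of 2 was 0 or 1 in 11 of the 12 fits that left out 1 sample. Beside the autophagy and proteasome counts, 16.1% of all genes were more negative and 11.1% more positive. For genes averaging 50 CPM or more the shares were 36.3% and 12.1%.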

How the data were processed

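RNA was sequenced in 12 samples of Panc02 cells, 3 in each of 4 groups (WT or Cxcl5-/-, 2D or 3D). Libraries were stranded and made from total RNA, and paired reads were aligned by the authors to GRCm38 (mm10 per the labels) with HISAT2. The authors deposited 1 table of raw read counts per gene from StringTie, which they tested with DESeq2. Versions of the aligner and counter are not given in the sources used here. Every column of values was assigned to a sample by its name.

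Of 56980 genes in the table, 21367 passed edgeR's filterByExpr over the 4 groups. Libraries of 46973008 to 72361685 counts were scaled by TMM, and 1 quasi-likelihood model with a mean per group was fitted to all 12 samples (edgeR 4.0.16, R 4.3.3), from which the interaction, both genotype effects and both culture effects were taken. P-values were adjusted by Benjamini-Hochberg over all genes tested and called under 0.05. Standard errors are the absolute log2 value over the square root of F. CPM are counts scaled to a common TMM-adjusted library size, without length, so that levels are compared within a gene only. The fitting was tested on simulated data.

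Named genes were Cxcl5, Cxcr2, Hif1a and Myc, up to 2 called members with the largest absolute interaction in each main list, the 6 most positive and 6 most negative, and 4 in each direction with called opposite genotype effects and the largest smaller effect, all from genes averaging at least 5 CPM except the first 4, and predicted genes and pseudogenes were left out of the last 2 sets. Some genes that this rule names are not reported here. Other members were named from the lists after their values were seen. The members and lists were chosen with earlier results of these data known. Alternatives were DESeq2 1.42.0, other scalings, other filters, a fold limit, summed entries of a symbol, the replicate number as a block and leaving out each sample. Library totals without the satellite-like genes were added after seeing the data. Replicate numbers were not treated as a pairing in the main fit, and the data do not settle whether they pair the samples. Promoters came from RefSeq (GRCm38.p6), and figures were drawn in Python.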

Additional observations from a re-analysis of the deposited data

Results flagged for a closer look

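The interaction term tests whether the difference between libraries labelled Cxcl5-/- and WT was unlike in 3D and 2D, and it passed for 5807 genes. A single line stands for the genotype. In 3D, Cxcl5 counts were higher in the libraries labelled Cxcl5-/- than in WT, and a count does not check the knockout. The part of the satellite-like counts was not tested. Among the named genes, 16 had genotype effects called with opposite signs in the 2 cultures. The interaction was -2.49 for Aldh1l2, -4.80 for Mal, -2.93 for Selenbp1, -2.55 for Plag1, -4.04 for Cd109, -2.42 for Ccn1, -2.08 for Trib3, -2.02 for Ccng1 and -1.50 for Psat1, and these 9 were higher in Cxcl5-/- in 2D and lower in 3D. It was 3.89 for Kif26b, 4.66 for Pdgfra, 2.50 for Cebpa, 2.55 for Ass1, 1.93 for Ifit1, 1.15 for Col3a1 and 0.94 for Sdf2l1, and these 7 were lower in Cxcl5-/- in 2D and higher in 3D. Of the 16, 8 (Aldh1l2, Mal, Selenbp1, Plag1, Kif26b, Pdgfra, Cebpa and Ass1) were chosen for opposite effects, so their values are a description. The rest were picked for the size of their interaction, which favours opposite effects, so theirs are a description too. Of 21367 genes tested, 170 (0.796%) had called effects of opposite sign.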

How the results depend on the processing

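The 65 named genes tested gave 1359 values over 21 alternative settings, of which 1345 stayed on the same side of the threshold, 14 no longer passed and 0 changed direction. The 14 belonged to Adm, Aox3, Col16a1, Idh3g, Inmt, Ncl and Nop2, with Idh3g at -0.30 (adjusted p = 0.0558) under library totals. Counts moved more. With raw library totals the interaction had 4585 positive and 1359 negative calls, genotype in 3D 7671 higher and 2445 lower, and 55 genes were higher in 2D and lower in 3D. Library totals without satellite-like genes, a setting chosen after seeing the data, gave 2080 negative interactions and 3546 genes lower with genotype in 3D. Without a filter there were 2115 negative interactions and 66 genes higher in 2D and lower in 3D, and with DESeq2's own test 157 of the latter. Tested on genes averaging at least 5 CPM, which are fewer, 2286 interactions were negative, 3368 genes were lower with genotype in 3D, 3953 rose and 3890 fell with 3D culture in Cxcl5-/-, and 3048 rose in WT. A limit of 1 on the absolute log2 value left 1362 positive and 1076 negative interactions, 364 and 302 genotype effects in 2D, 2096 and 1675 in 3D, 3995 and 2087 culture effects in Cxcl5-/-, and 2868 and 1009 in WT.

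Leaving out 1 sample gave 1675 to 2487 positive and 2363 to 4506 negative interactions, 63 to 154 genes higher in 2D and lower in 3D, 35 to 77 with the reverse order, and 402 to 737 genes lower with genotype in 2D. The last was 434, 430, 420, 426 and 402 without 2D WT replicate 1 or 3 or 2D Cxcl5-/- replicate 1, 2 or 3. With the replicate number as a block the interaction had 2441 positive and 3579 negative calls, 5558 of them shared with the fit without it, and no named gene changed its call. Samples with the same number deviated together little on average (mean correlation of deviations 0.0409, and over 0.1 in 3 of 18 pairs of samples). However, 9 of 12 samples correlated best with their own number, a hint from the data and not from the design. Genes at 0 in a group give no usable fold.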
